A study of Mus musculus with 8 samples.

Results

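Histone H3.3 is the H3 variant that cells place into chromatin outside DNA replication, and it is encoded in the mouse by H3f3a and H3f3b. These 2 genes and 6 genes for its chaperones, Hira, Ubn1, Ubn2, Cabin1, Daxx and Atrx, were followed in morulae depleted of P150. The members were taken as every probe whose RefSeq accession joined to 1 of the 8 genes. This gave 15 of the 55681 probes on the array, for 8 of the 20660 genes with a named probe.

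The study asked how loss of CAF-1, the chaperone that loads H3 and H4 onto newly copied DNA, alters gene expression in the mouse preimplantation embryo. P150, encoded by Chaf1a, is its large subunit. All embryos came from in vitro fertilisation, were injected with siRNA as 1-cell embryos, grew in KSOM medium and were collected as morulae at E3.0. The siControl group received a control siRNA (3 arrays) and the P150KD group an siRNA against P150 (5 arrays), which lowers the transcript and leaves the gene intact. Each array held RNA from 10 pooled embryos, amplified through successive rounds before labelling, and the mouse strain is not given in the sources used here. The labels do not say that replicates came from separate fertilisations, so p-values measure only the spread between these samples. An equal mass of amplified RNA was labelled for each array, so a level is relative to the array's other RNAs, and fewer cells and less RNA per cell cannot be told apart.

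H3.3 and the replication-dependent H3 proteins differ at a few residues that decide which chaperone binds them. CAF-1 handles the replication-dependent forms, the HIRA complex (HIRA, a ubinuclein encoded by Ubn1 or Ubn2, and CABIN1) places H3.3 at active genes and in gaps between nucleosomes, and DAXX with the remodeler ATRX places it at telomeres, pericentromeres and retrotransposons. In the early mouse embryo HIRA loads maternal H3.3 onto the sperm genome after fertilisation, and H3f3a and H3f3b encode the same protein from different transcripts.

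The 250 bases before the annotated start of H3f3a, H3f3b and Daxx are shown because the H3.3 genes and Daxx are the members whose control and knockdown arrays did not overlap. They are RefSeq sequences in the GRCm38.p6 build, printed along the gene's own strand. Capitals mark each match, on either strand, to 1 of 4 motifs. These were the CCAAT box, spelled CCAAT, the GC box that Sp factors bind, spelled GGGCGG, the TATA box, spelled TATAAA, and the core of cyclic AMP response elements, spelled TGACG. A match on the other strand appears as the reverse complement, and neighbouring GC boxes that overlap form 1 longer run of capitals. The H3f3a window lies at chr1:180813606-180813855 on the minus strand, the H3f3b window at chr11:116024505-116024754 on the minus strand and the Daxx window at chr17:33909195-33909444 on the plus strand, the last being the farthest upstream of 3 Daxx starts.
H3f3a: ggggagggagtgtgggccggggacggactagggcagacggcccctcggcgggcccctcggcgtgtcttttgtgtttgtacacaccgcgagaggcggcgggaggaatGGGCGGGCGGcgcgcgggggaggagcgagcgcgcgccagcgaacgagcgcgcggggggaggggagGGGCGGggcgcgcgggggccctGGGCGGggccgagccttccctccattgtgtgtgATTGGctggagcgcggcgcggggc
H3f3b: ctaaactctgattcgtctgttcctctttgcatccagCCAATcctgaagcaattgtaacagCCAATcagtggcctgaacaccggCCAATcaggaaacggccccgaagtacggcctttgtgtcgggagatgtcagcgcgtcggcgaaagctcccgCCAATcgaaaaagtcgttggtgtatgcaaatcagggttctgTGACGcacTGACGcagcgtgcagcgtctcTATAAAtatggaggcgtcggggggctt
Daxx: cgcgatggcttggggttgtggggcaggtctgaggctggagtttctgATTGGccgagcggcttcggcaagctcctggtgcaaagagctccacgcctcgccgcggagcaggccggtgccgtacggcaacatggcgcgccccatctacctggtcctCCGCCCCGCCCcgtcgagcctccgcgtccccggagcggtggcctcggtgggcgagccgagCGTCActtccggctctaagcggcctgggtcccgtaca

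The windows of the 2 H3.3 genes held different sets of these motifs. The H3f3b window held 4 CCAAT boxes, 2 TGACG cores and a TATA box whose first base lies 27 bases before the start, and no GC box. The H3f3a window held 4 GC boxes and 1 CCAAT box, 24 bases before the start, and neither of the other motifs. The Daxx window held 2 overlapping GC boxes, 1 CCAAT box and 1 TGACG core. Over the 32851 RefSeq promoter windows of the same length, 33.8% held a CCAAT box, 32.7% a GC box, 12.4% a TATA box and 17.8% a TGACG core. These matches describe the letters only, and binding was not measured.

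Expression was read as the processed signal of each probe, a background-subtracted intensity. It is given as a log2 level, the log2 signal minus the 75th percentile of its array, so that 1 unit is a doubling and 0 is that percentile. Probes differ in brightness, so levels are compared between arrays and never between probes. A probe entered the test if 3 or more of the 8 arrays, of either group, read it as well above background, which kept 30348 probes for 14601 genes. Groups were compared with limma, whose p-values were adjusted over all 30348 probes (Benjamini-Hochberg, threshold 0.05), and the brightest tested probe of a gene stood for it in counts. The 75th percentile lay between 819.5 and 1304 intensity units, lowest on siControl 3, and 50.1% to 55.9% of spots were well above background, with 0 saturated. All arrays shared 1 slide and 1 scan, and the first column of the slide held the 3 controls with P150KD 1, the other column P150KD 2 to 5.

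Chaf1a, the gene targeted by the siRNA, fell in P150KD: its log2 level was 2.09 to 2.40 on the controls and -1.47 to 0.52 after knockdown. The limma log2 fold change was -2.88 ± 0.48 (SE; 3 against 5 arrays, adjusted p = 0.0107). Of 10 morula genes checked against the label, all were tested. Sox2 and Tead4 fell and 0 rose, where 10.5% of all genes fell and 6.65% rose. Of the 10 fold changes 9 were negative, with a median of -0.54 against -0.24 over all genes. On 2 of these genes the knockdown arrays were far apart. Cdx2, a trophectoderm factor, read 1.73, 2.66, 2.39, 4.51 and 4.55 on P150KD 1 to 5, with controls from 4.44 to 4.51. Krt8, an epithelial keratin, read 0.54, 1.59, 1.26, 3.19 and 3.49, with controls from 3.65 to 4.46. P150KD 4 and 5 were thus nearest to the controls on both genes. Of the markers of other cells that a sample could hold, 2 of 9 cumulus and granulosa genes were tested and 0 were called by limma, with 0 at an unadjusted p under 0.05. The summed linear level of that list, in multiples of the 75th percentile, was 1.95 to 3.16 in siControl and 1.54 to 2.64 in P150KD. Has2, Ptx3, Tnfaip6, Ptgs2, Fshr and Inhba were not well above background on any array, while Foxl2 was on all 8. The brighter Foxl2 probe read 0.46 to 1.04 in siControl and 0.55 to 1.33 in P150KD. For sperm, 6 of 9 markers were tested and 0 were called by limma. At an unadjusted p under 0.05, 2 were higher, against 12.7% of all genes. All 6 fold changes were positive, with a median of 1.51 against -0.24 over all genes. The summed level was 0.246 to 0.42 in siControl and 0.448 to 2.02 in P150KD, with Akap4 not well above background. For leukocytes, 7 of 10 were tested and 3 rose (Cd74, Coro1a and Srgn), where 6.65% of all genes rose. Of the 7 fold changes 4 were positive and 3 negative, with a median of 0.008. The summed level was 5.75 to 7.72 against 8.6 to 16.5. The defining leukocyte gene Ptprc, with Tyrobp and Laptm5, was not well above background on any array. The part of these shifts in the results below was not tested.

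Among the 8 genes, Daxx alone passed the test, and it fell. Both H3.3 genes read higher on every P150KD array than on any control array on all 5 of their probes, but none of these probes reached the threshold in limma. The genes of the HIRA complex and Atrx did not pass, and control and knockdown arrays overlapped on each of their tested probes. Of the 14 tested probes, 0 were called higher in limma, where 6.28% of all tested probes were, and 1 was called lower, against 7.66% of all. At an unadjusted p under 0.05, 4 member probes were higher, against 11.9% of all. By gene, 0 of 8 were called higher in limma (6.65% of all genes) and 1 was called lower (10.5% of all). At an unadjusted p under 0.05, 1 gene was higher (12.7% of all) and 1 lower (22.9% of all). The 15th probe, the second for Cabin1, was not well above background on any array and was not tested. The 13 tested probes other than the third Atrx probe were well above background on all 8 arrays.

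**Figure D1:**
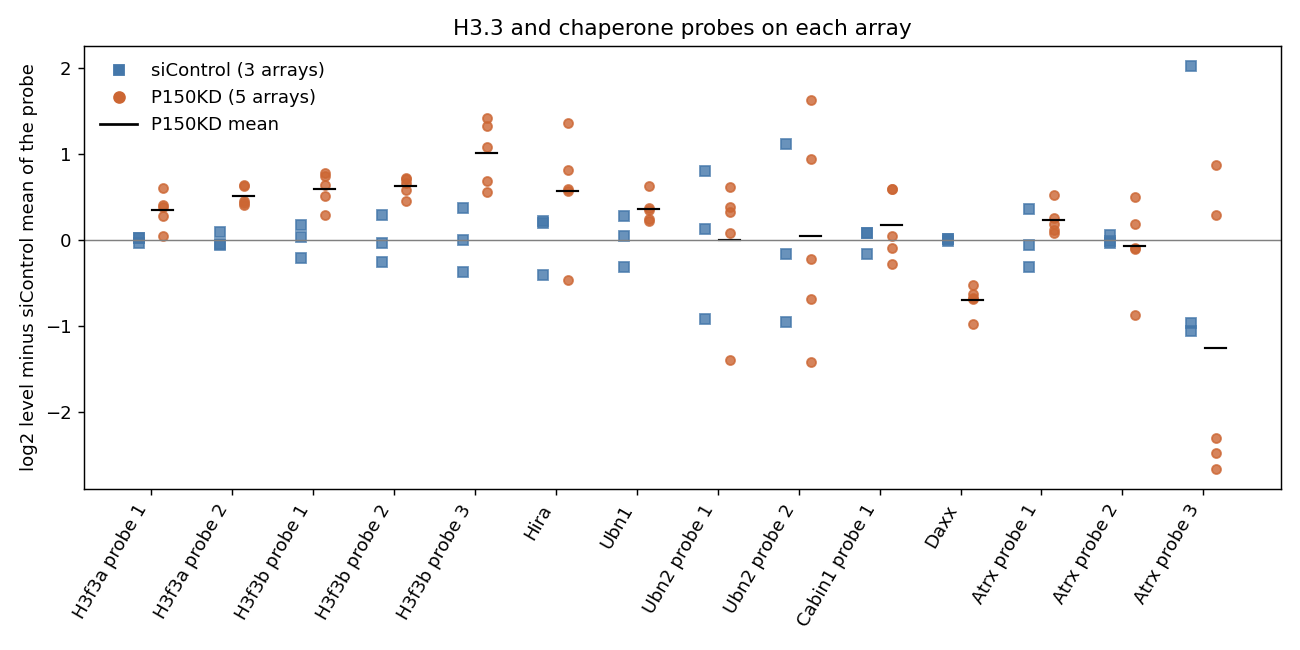
The log2 level of each tested probe on each array, with the probe's siControl mean subtracted (vertical axis). Squares are the 3 siControl arrays, circles the 5 P150KD arrays and bars the P150KD means. Probes of a gene are numbered from the brightest, and the circles lie above all squares for the 5 H3.3 gene probes and below all squares for Daxx.

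H3f3b was probed by 3 features, each higher in P150KD. Its brightest probe (A_55_P2059164) read 6.93, 7.16 and 7.31 on siControl 1 to 3 and 7.90, 7.87, 7.76, 7.64 and 7.43 on P150KD 1 to 5. The groups did not overlap, and P150KD 5 lay nearest to the controls. The mean level was 7.13 ± 0.19 (SD, n = 3) in siControl and 7.72 ± 0.19 (SD, n = 5) in P150KD, a log2 fold change of 0.59 ± 0.19 (SE) that limma did not call (adjusted p = 0.0762). In linear terms this was 1.50-fold, with a 95% interval of 1.11 to 2.03.

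The other H3f3b probes showed the same direction. Probe A_55_P1982030 read 6.42, 6.64 and 6.96 in siControl and 7.38, 7.33, 7.25, 7.39 and 7.12 in P150KD, without overlap. This made a log2 fold change of 0.62 ± 0.18 (SE; limma, adjusted p = 0.0595). Probe A_52_P217875 read 3.31, 2.57 and 2.94 in siControl and 4.36, 4.26, 3.50, 4.02 and 3.63 in P150KD. Here, as on the other H3f3b probes, the lowest knockdown array stood above the highest control array by a narrow margin. Its log2 fold change was 1.01 ± 0.28 (SE; limma, adjusted p = 0.0523). Over the 8 arrays the brightest probe correlated with the others at Pearson's r of 0.95 and 0.79, and at 0.79 and 0.24 once the group means were removed, which is a description of probes that share the same RNA and arrays.

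H3f3a showed smaller fold changes, though the difference between the genes was not tested. Its brightest probe (A_55_P2065369) read 7.62, 7.56 and 7.62 in siControl and 8.003, 8.20, 7.98, 7.87 and 7.64 in P150KD. The groups did not overlap, but P150KD 5 was only just above the highest control. This gave a log2 fold change of 0.34 ± 0.17 (SE; 95% interval -0.06 to 0.75; limma, adjusted p = 0.23), or 1.27-fold. The second probe (A_55_P2078266) read 7.23, 7.37 and 7.22 in siControl and 7.91, 7.91, 7.71, 7.73 and 7.68 in P150KD. All knockdown arrays were clearly above the controls on this probe, whose log2 fold change was 0.51 ± 0.15 (SE; limma, adjusted p = 0.0659). The probes correlated at r = 0.85 over the 8 arrays, and at 0.64 once the group means were removed. On the brightest probes of both H3.3 genes P150KD 4 and 5 were the lowest knockdown arrays, as they were the nearest to the controls on Cdx2 and Krt8. Their other probes did not show this, and on H3f3b probe A_55_P1982030 P150KD 4 was the highest array. The part of the Cdx2 and Krt8 spread in the result was not tested.

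All 5 H3.3 gene probes were thus higher without overlap between groups, against 9.36% of all tested probes. They measure 2 genes on the same arrays, so they are repeat readings and not 5 separate results. H3f3a and H3f3b encode the same protein and have near-identical copies elsewhere in the genome, and whether such copies add to these signals was not tested. Over all 14601 tested genes the median log2 fold change was -0.24, and less that median H3f3b stood at 0.83 and H3f3a at 0.58. The 75th percentile of all genes was 0.44, with H3f3b above it and H3f3a below it. H3f3b passed the threshold under 7 of 20 other ways of processing the arrays and H3f3a under 2, with the direction kept in all 20 for each. Because the groups did not overlap, only other scaling, background correction or the deposited values could have reversed that direction. Within the first slide column, where P150KD 1 met the 3 controls, H3f3b was 0.77 and H3f3a 0.41 higher on the log2 scale. With the column as a block in limma the same values had adjusted p = 0.251 for H3f3b and 0.549 for H3f3a.

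**Figure D2:**
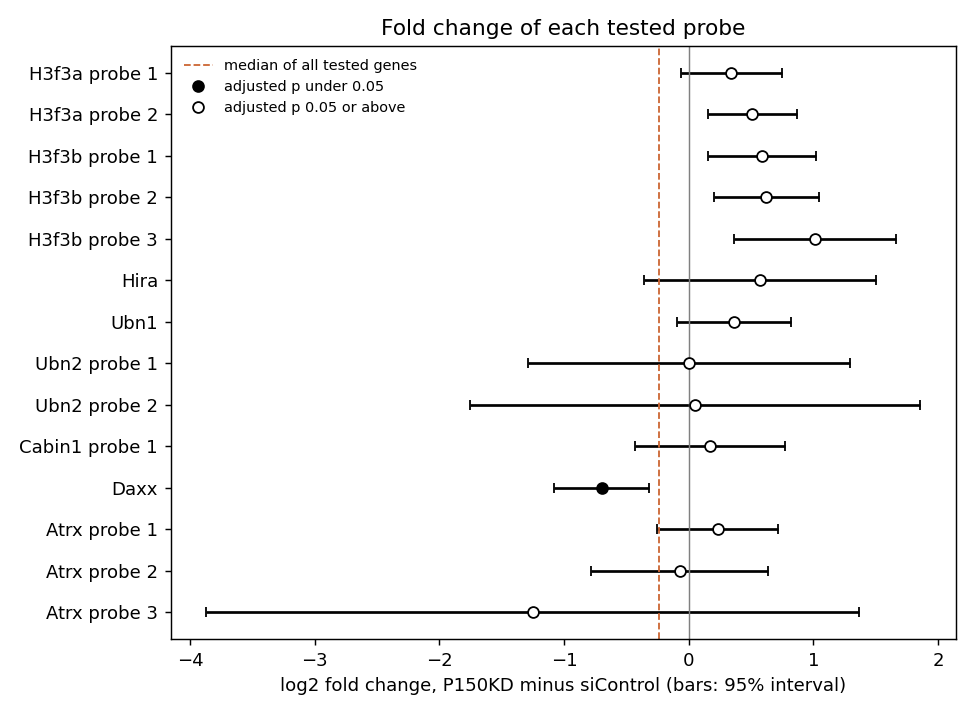
The log2 fold change of each tested probe in P150KD over siControl (horizontal axis) with its 95% interval from limma. The filled point, Daxx at -0.70, passed the adjusted threshold, the open points did not, and the dashed line at -0.24 is the median of all tested genes.

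Hira encodes the scaffold of the HIRA complex, which binds the other subunits and H3.3 with H4. Its probe read -3.03, -2.43 and -2.40 in siControl and -1.81, -2.03, -3.08, -2.06 and -1.27 in P150KD. On 4 of 5 knockdown arrays it was above every control, while P150KD 3 was below them all, so the groups overlapped. Its log2 fold change was 0.57 ± 0.40 (SE; 95% interval -0.36 to 1.50) and did not pass in limma (adjusted p = 0.372). The interval allows anything from a 0.779-fold to a 2.84-fold level.

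The ubinucleins contact H3.3 directly and give the complex its preference for the variant. Ubn1 read 4.10, 3.87 and 3.51 in siControl and 4.20, 4.05, 4.07, 4.46 and 4.18 in P150KD. On 3 of 5 knockdown arrays it exceeded the highest control, and siControl 3 was the lowest of all. P150KD and siControl means differed by a log2 fold change of 0.36 ± 0.20 (SE; limma, adjusted p = 0.256).

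Ubn2 had 2 tested probes and the widest scatter of the complex. The brighter probe (A_51_P239036) read 1.78, 2.46 and 0.74 in siControl and 0.27, 1.98, 2.27, 2.04 and 1.74 in P150KD. Apart from P150KD 1, which was the lowest array, the knockdown values lay inside the control range. The log2 fold change was 0.00 ± 0.55 (SE; limma, adjusted p = 0.998), with a 95% interval of -1.29 to 1.29, which on the linear scale runs from 0.410-fold to 2.45-fold. The dimmer probe (A_55_P2172227) ranged from -3.06 to -0.99 in siControl and from -3.52 to -0.48 in P150KD, and the probes correlated at r = 0.48.

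Cabin1 encodes the subunit that binds HIRA and helps with H3.3 deposition. Its tested probe read 0.72, 0.48 and 0.72 in siControl and 0.68, 0.36, 0.55, 1.23 and 1.24 in P150KD. P150KD 4 and 5 stood above the controls, P150KD 2 below them, and the groups overlapped. Limma gave a log2 fold change of 0.17 ± 0.26 (SE; 95% interval -0.43 to 0.77; limma, adjusted p = 0.692).

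Daxx encodes the H3.3 chaperone that works with ATRX and is also found in PML nuclear bodies. Its single probe (A_51_P412835) read 4.20, 4.20 and 4.18 in siControl and 3.52, 3.67, 3.51, 3.57 and 3.21 in P150KD. The controls were almost level with one another, and all 5 knockdown arrays lay below them, P150KD 5 the lowest. Of all tested probes, 17.7% were lower without overlap between the groups. The mean fell from 4.19 ± 0.01 (SD, n = 3) to 3.50 ± 0.17 (SD, n = 5), a log2 fold change of -0.70 ± 0.16 (SE; 95% interval -1.08 to -0.32; limma, adjusted p = 0.0314). The knockdown level was 0.617 of the control level, and the control level 1.62-fold higher. Less the median of all genes, the difference was -0.46.

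The Daxx call was close to the threshold. It was kept under 8 of 20 alternatives, with adjusted p from 0.00857 to 0.665 over all of them, and the direction stayed negative in each. Because the groups did not overlap, only other scaling, background correction or the deposited values could have reversed that direction. Leaving out siControl 1, 2 or 3 gave adjusted p = 0.104, 0.0924 and 0.078 in limma, and leaving out P150KD 1, 3 or 4 gave 0.0623, 0.0635 and 0.0587, while the call was kept without P150KD 2 or 5. The log2 fold change in these 8 fits ran from -0.74 to -0.63. Scaling the arrays to 12 housekeeping genes reduced it to -0.12 (limma, adjusted p = 0.665). As reported, those genes were all lower in P150KD, with a median of -0.30 against -0.24 over all genes. Of the 12, 4 fell, where 10.5% of all genes did. Within the first slide column the difference was -0.67, and with the column as a block its adjusted p was 0.273.

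ATRX is the SWI/SNF-family partner of DAXX. The brightest of its 3 probes (A_66_P118592) read 1.25, 1.67 and 1.00 in siControl and 1.43, 1.56, 1.83, 1.49 and 1.39 in P150KD. Only P150KD 3 exceeded the highest control, and no knockdown array fell below the lowest. On this probe the log2 fold change was 0.23 ± 0.21 (SE; 95% interval -0.25 to 0.72; limma, adjusted p = 0.491). The second probe (A_51_P413366) gave -0.07 ± 0.30 (SE; adjusted p = 0.893), and its knockdown arrays ranged from 0.06 to 1.43 around controls of 0.88 to 0.98. The third (A_66_P119643) was well above background on only 3 of 8 arrays, 1 control and 2 knockdown, and gave -1.25 ± 1.12 (SE; adjusted p = 0.491). These probes tracked one another poorly, with r from -0.28 to 0.46 over the 8 arrays.

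**Figure D3:**
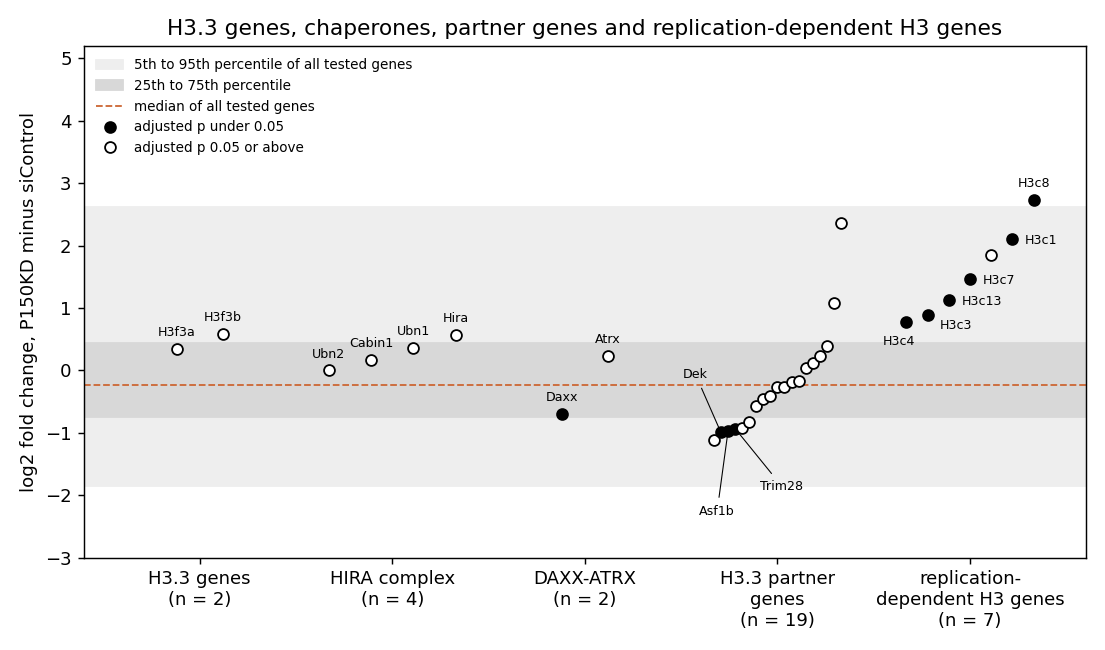
The log2 fold change of each gene by its brightest tested probe (vertical axis), in 5 groups of genes, over bands that hold the middle of all 14601 tested genes. Filled points passed the adjusted threshold: Daxx, Dek, Asf1b and Trim28 fell and 6 replication-dependent H3 genes rose, and both H3.3 genes lie above the dashed median of -0.24, H3f3a within the band from the 25th to the 75th percentile.

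The median log2 fold change of the 8 members was 0.29, against -0.24 over all genes, with 11 of 14 tested probes positive and 3 negative. Among 19 partner genes of H3.3 and its chaperones, all tested, 0 rose (6.65% of all genes did) and 3 fell (10.5% of all genes did) in limma, with a median of -0.27 against -0.24 over all genes. At an unadjusted p under 0.05, 0 of the 19 were higher and 8 lower, against 12.7% and 22.9% of all genes. Asf1b, a histone escort of H3 and H4, fell from 4.64 to 5.12 on the controls to 3.67 to 4.07 in P150KD. Its log2 fold change was -0.98 ± 0.19 (SE; limma, adjusted p = 0.0162). Trim28, the corepressor that recruits SETDB1 to retrotransposons, fell by 0.93 ± 0.21 (SE; limma, adjusted p = 0.0283). Dek, a chromatin protein that acts as an H3.3 chaperone, fell by 0.995 ± 0.236 (SE; limma, adjusted p = 0.0326).

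No other partner passed. The nearest were Rbbp7, a histone-binding protein of several chromatin complexes, with a log2 fold change of -0.56 (limma, adjusted p = 0.0603), Zmynd11, a reader of methylated H3.3, at -0.82 (0.088), Cbx5, which encodes HP1 alpha, at -1.12 (0.0914), and Pml, the scaffold of the nuclear bodies that hold DAXX, at -0.92 (0.104). The dimmer probes of Rbbp7 and Zmynd11 went the other way, at 0.05 (limma, adjusted p = 0.926) and 0.55 (0.266). Those of Cbx5 and Pml were lower too, at -0.80 (0.816) and -3.40 (0.267). Asf1a, the second ASF1 escort, differed by 2.36 ± 1.35 (SE; adjusted p = 0.279) between arrays that scattered from -7.47 to -0.96. The dimmer of the Hat1 probes lay just short of the threshold (-0.995, adjusted p = 0.0506), the brighter further from it (-0.26, adjusted p = 0.386). Leaving out siControl 1 or 2, or P150KD 1, 2, 3 or 4, left 1 partner gene called lower in place of 3. The count lower was also 1 under quantile normalization and 0 under housekeeping scaling, where 1 partner gene was called higher, and it was 5 with eBayes trend and robust and 6 with array weights.

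The replication-dependent H3 genes, which encode the H3 proteins that CAF-1 loads, were counted beside the H3.3 genes. Of 12 such genes 7 had a named probe and were tested, and 6 rose, with 0 falling, where 6.65% of all genes rose. At an unadjusted p under 0.05 all 7 were higher, against 12.7% of all genes. Their median log2 fold change was 1.47. H3c8 rose most, by 2.73 ± 0.37 (SE; limma, adjusted p = 0.00583), and H3c4 least among those called, by 0.78 ± 0.19 (SE; adjusted p = 0.0339). H3c11 fell short of the threshold, with a log2 fold change of 1.84 ± 0.60 (SE; adjusted p = 0.0831). Without siControl 1 the count called higher was 3 in place of 6. These transcripts mostly lack a poly(A) tail, and how the amplification treated them was not tested. Whether each probe reads its own gene alone was not tested either, so the 7 may not be separate readings.

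Beside Chaf1a, the CAF-1 subunit gene Chaf1b fell by 0.90 ± 0.18 (SE; limma, adjusted p = 0.0188), and Rbbp4, whose product also serves other chromatin complexes, was 0.38 ± 0.32 (SE) apart and not called (adjusted p = 0.449). When the slide column was entered as a block, 0 partner genes and 0 replication-dependent H3 genes were called by limma, where 713 of 30348 probes were called.

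**Figure D4:**
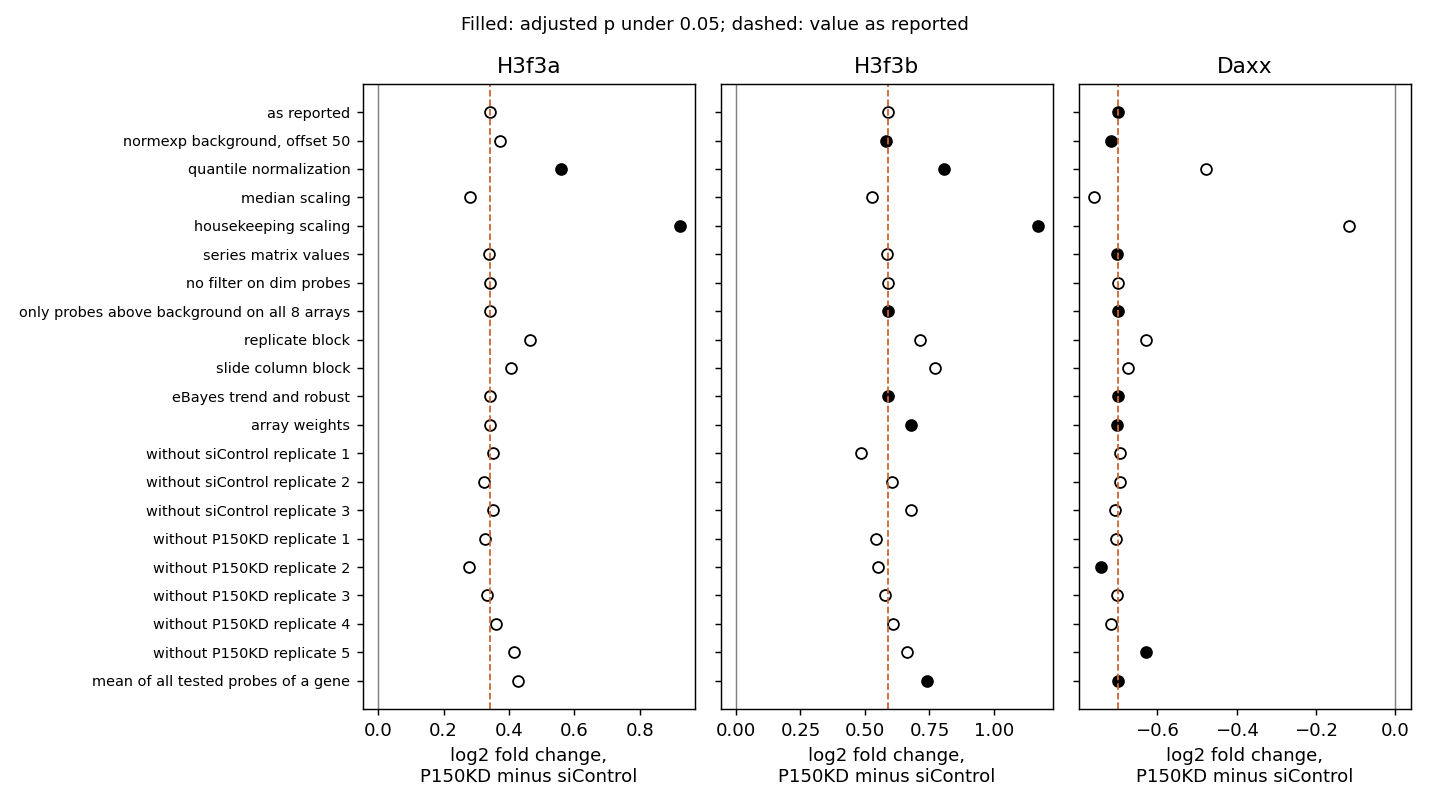
The log2 fold change of H3f3a, H3f3b and Daxx (horizontal axes) as reported and under each alternative (one per line). Filled points passed the adjusted threshold of 0.05 and the dashed line is the reported value. H3f3a runs from 0.28 to 0.92, H3f3b from 0.49 to 1.17 and Daxx from -0.76 to -0.12, each on 1 side of 0 throughout. Their groups did not overlap, so only other scaling, background correction or the deposited values could have moved them across 0.

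For each member the 2 genes whose log2 level was most alike over the 8 arrays were sought among 11284 genes well above background on every array, by Pearson's r, as a description over arrays that share 2 groups. H3f3b was most like Sqle (r = 0.98) and Cpne1 (0.98), and H3f3a like Ankrd17 (0.97) and Fsip2l (0.97). Daxx was most like Sarnp (0.99) and Parl (0.99), at 0.91 and 0.90 once the group means were removed. Both genes fell in P150KD, with log2 fold changes of -0.64 (limma, adjusted p = 0.0386) and -0.93 (adjusted p = 0.0179). As Daxx differed mainly between groups, their fall follows from how they were picked. The nearest to Hira were Eif4g2 (0.96) and Zfp341 (0.95), to Ubn1 Gpbp1l1 (0.97) and Mfn1 (0.96), and to Ubn2 Tmem121 (0.97) and Zfp420 (0.95). Cabin1 was most like Barx2 (0.99) and Prpf8 (0.98), and Atrx like Trmt2b (0.97) and Platr21 (0.94). No member was among the 2 nearest genes of another.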

How the data were processed

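RNA of mouse morulae was measured on 8 single-colour Agilent arrays (3 siControl, 5 P150KD). Scans were read by the authors in Agilent Feature Extraction 10.5.1, per the file headers. Its processed signal, an intensity per the file headers, had background subtracted and spatial trends removed within the array only. The deposited flags (other values of 0 or 1) gave outlier spots and spots well above background. The authors' deposited series table holds log2 values, which matched the scanner signals after scaling to the 75th percentile and centring each probe on its median (lowest correlation over the arrays 0.99997). Its column medians ran from -0.21 to 0.09.

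Control spots were left out, and 59305 spots were averaged to 55681 probes, of which 27235 joined by RefSeq accession to 1 of 20660 symbols. H3-3a and H3-3b are listed as aliases of both H3.3 genes, so accessions alone were used. Signals were put on the log2 scale, less each array's 75th percentile. The fit was limma 3.58.1 in R 4.3.3 (lmFit, eBayes, two-sided, no covariates), checked on simulated data. The number of arrays limits the precision. The text names all members with every probe, the called genes of each list and, ranked by p, up to 4 more, and the 2 most correlated genes of each member. Asf1a, Hat1, H3c4, H3c8 and H3c11, as examples, and the named markers were singled out after their values were seen. The members and lists were chosen with earlier results of these data known. Alternatives were normexp (offset 50, median spot signal), quantile, median and housekeeping scaling, the series table, 2 other filters on dim probes, all probes of a gene averaged, array weights (statmod 1.5.0), robust eBayes with a trend, replicate number or slide column as a block, and each array left out. Motifs and figures were made with Python 3.11.15 and matplotlib 3.10.9.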

Additional observations from a re-analysis of the deposited data

Results flagged for a closer look

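On the brighter Ubn2 probe, P150KD 1 stood apart from the other knockdown arrays, at a log2 level of 0.27 where the next lowest was 1.74. The gap was 0.737 of the range of the 5 arrays. Of 14 tested probes 1 was picked out in this way, and chance picks out about 5% of groups.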

How the results depend on the processing

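As reported, 1 member gene was called lower (Daxx) and 0 higher. The count lower was 0 under quantile, median and housekeeping scaling, no filter on dim probes, the replicate block and the slide column block, and 0 to 1 with each array left out. The count higher was 4 under housekeeping scaling, 2 under quantile normalization, 1 (H3f3b each time) under normexp, only probes above background on all 8 arrays, eBayes with trend and robust, array weights and the mean of all probes, and 0 with each array left out. For Daxx the adjusted p was 0.0987 under quantile and 0.109 under median scaling, and 0.0501 with no filter. Ubn2, at 0.00 as reported, was -0.0595 under median scaling, -0.24 with array weights, -1.39 with the slide column block, -0.15 with the replicate block, and -0.46 to 0.40 with each array left out. Cabin1 was -0.11 with the replicate block, and Atrx -0.36 over the mean of its probes. H3f3a, H3f3b, Hira, Ubn1 and Daxx kept their direction under all 20 alternatives. Settings that change only the filter, the eBayes step or the averaging of probes repeat the reported fold changes of Hira and Ubn1. For H3f3a, H3f3b and Daxx, whose groups did not overlap, the direction was fixed except under other scalings, normexp and the series table. The cause of the changes was not tested.

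Replicate numbers did not pair the samples (correlations of deviations -0.01, -0.07 and -0.02), and with the replicate block, in which P150KD 4 and 5 have no control of their number, 0 of 30348 probes were called. Probes called numbered 1706 to 3749 with each array left out, against 4231 as reported, 2986 under median scaling and 4600 under housekeeping scaling. The median of all genes moved from -0.24 by 0.12 under quantile normalization, where 58.2% of calls were higher against 45.1%, and by 0.58 under housekeeping scaling, with 89.2% higher. Less that median, Daxx was -0.46 as reported, -0.36 under quantile normalization and -0.50 under normexp, and H3f3b 0.83, 0.92 and 0.79; median and housekeeping scaling shift all probes of an array alike and cannot move these values. Signal over background limits the dimmest Cabin1 and Atrx probes.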
